A study of Ovis aries with 32 samples.

Results

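The comparison asks whether phenylephrine (PHE), an alpha-1 adrenergic agonist, changed RNA levels in the middle cerebral artery of sheep differently in the adult than in the near-term fetus. It takes 16 of the 32 arrays of the series, 4 in each of 4 groups, all scanned on 1 day. Adult untreated and adult PHE arrays hold arteries labelled as 2 years old, an age the series design gives as 18 to 24 months. Near-term untreated and near-term PHE arrays hold arteries of fetuses labelled as 146 days of gestation, which the series design gives as 140 days. PHE was given to isolated artery segments at 10 µM for 30 min. The labels do not say whether equal replicate numbers mark arteries of 1 animal. RNA was hybridised to 1-colour Agilent sheep arrays with 15008 probes. Signals are given as log2 values relative to the array's own 75th percentile, so that 0 is the 75th percentile of that array. The PHE effect at an age is the mean of the PHE arrays minus the mean of the untreated arrays, and the difference is the adult effect minus the near-term effect, also on the log2 scale. A positive difference means a PHE effect that lay higher in the adult.

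Alpha-1 adrenergic receptors couple through Gq to phospholipase C, which releases stored calcium and activates protein kinase C, and in arteries the outcome known best is contraction of smooth muscle. The same pathway feeds into the MAP kinase cascade and turns on immediate early genes, many of them transcription factors, whose RNA appears within minutes and needs no new protein. Many of these RNAs are short-lived, and their products include proteins that switch the pathway off again, such as DUSP phosphatases and the RNA-destabilising protein ZFP36. Isolating and cutting an artery, apart from any agonist, is also known to induce immediate early, heat shock and cytokine genes.

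The near-term arrays stood apart from one another more than the adult arrays did. The median standard deviation of a gene over the 4 arrays of a group was 0.33 in adult untreated, 0.30 in adult PHE, 0.55 in near-term untreated and 0.55 in near-term PHE arrays, and 0.34 in near-term PHE arrays without replicate 1. Near-term PHE replicate 1 had its highest rank correlation over genes (0.924) with an untreated array, near-term untreated replicate 1, while the other 3 near-term PHE arrays had theirs with one another. Its median rank correlation was nonetheless higher with the other near-term PHE arrays (0.9145) than with the near-term untreated arrays (0.9076). The signal of the near-term untreated arrays also varied. Their 75th percentile was 4.95, 9.15, 2.82 and 1.08 times the background for replicates 1 to 4, against 3.40, 11.6, 11.4 and 10.9 times in near-term PHE and 6.28 to 15.3 times in the 8 adult arrays. Near-term untreated replicate 4 was the dimmest of the 16 and had the lowest median rank correlation with its own group (0.881). The results below are given with all 16 arrays and without near-term PHE replicate 1, and a value given with no such remark is without it.

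**Figure D1:**
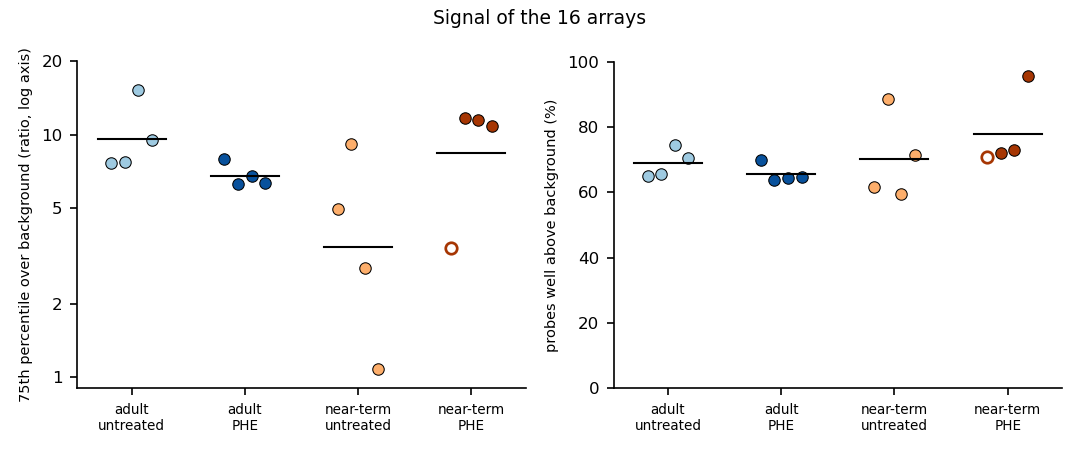
The left panel plots the 75th percentile of each array's signal over its background (ratio, log axis) and the right panel the percentage of probes well above background, with 1 point per array, a line at the group mean (geometric on the log axis) and near-term PHE replicate 1 as the open circle. The near-term untreated arrays spread from 1.08 to 9.15 times background, and near-term PHE replicate 1 sits at 3.40, below the other 3 arrays of its group.

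With all 16 arrays no gene's PHE effect differed between the ages by the criterion used, an adjusted p under 0.05 in limma and a difference of at least 1.5 fold. The count was 0 of 9997 genes (0.0%), and the smallest adjusted p was 0.068. At an unadjusted p under 0.05 in the same fit, 1612 genes (16.1%) differed, 1603 of them by at least 1.5 fold, and the methods' t-test gave 1253 genes at an unadjusted p under 0.05 and 1.5 fold and 0 after Benjamini-Hochberg adjustment. The methods compare 2 groups by a Welch test, and here it was carried to the difference of effects, with the variances of the 4 groups kept apart. Without near-term PHE replicate 1, 654 genes (6.54%) were called, 331 higher in the adult (3.31%) and 323 lower (3.23%), and 2670 genes (26.7%) had an unadjusted p under 0.05. The methods' t-test so carried then gave 2257 genes and 0 after adjustment. Fitting the arrays of all ages together, which pools their spread, gave 1207 genes (12.1%) with all arrays and 2641 (26.4%) without near-term PHE replicate 1. The near-term arrays varied more than the others, so a spread pooled over all ages is too small for the difference and raises the counts.

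The adult and near-term effects behind these differences use the same arrays as the differences and are given beside them as a description. In the adult, PHE changed 126 genes (1.26%), 116 up and 10 down, or 136 (1.36%) in the fit without near-term PHE replicate 1. In the near-term artery it changed 1934 genes (19.3%), 1034 up and 900 down, or 3324 (33.2%), 1564 up and 1760 down, without that array. For these 3324 genes, which were chosen without it, near-term PHE replicate 1 lay nearer the untreated mean in 2367 and nearer the PHE mean in 957. For the 331 genes called higher in the adult the median adult effect was -0.03 and the median near-term effect -1.43. For the 323 called lower, the median adult effect was -0.10 and the median near-term effect 1.85. In 315 of the 331 and 320 of the 323 genes the near-term effect was the larger in size, as it was in 7718 of all 9997 genes. All 16 arrays were well above background for 326 of the 331 genes, but for only 198 of the 323, beside 7170 of the 9997. Calls lower in the adult thus more often included readings not well above background.

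**Figure D2:**
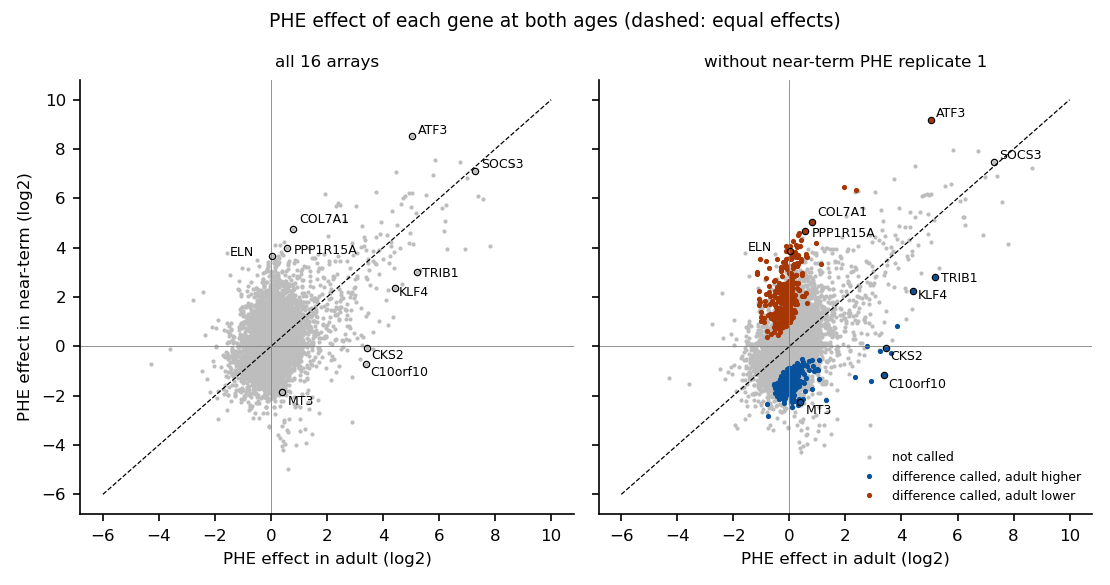
Each point is 1 gene, with its PHE effect in the adult on the horizontal axis and in the near-term artery on the vertical axis (both log2), for all 16 arrays on the left and without near-term PHE replicate 1 on the right. Genes called lower in the adult (323) and higher (331) lie mostly along the vertical axis, and a smaller group with C10orf10, CKS2, TRIB1 and KLF4 lies to the right, below the dashed line of equal effects.

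The count of 654 rested on few arrays. Leaving out 1 more array gave 295 and 559 genes without adult untreated replicate 1 and 2, 2 without adult untreated replicate 3 or 4, 2 without adult PHE replicate 1 or 3, 296 without adult PHE replicate 2 and 7 without adult PHE replicate 4. It gave 126, 1582, 32 and 940 genes without near-term untreated replicate 1, 2, 3 and 4, and 429, 3 and 108 without near-term PHE replicate 2, 3 and 4. The count with all 16 arrays was 0 or 1 when 1 array was left out, except 654 without near-term PHE replicate 1, 159 without near-term untreated replicate 2 and 8 without near-term PHE replicate 4. Scaling moved the balance of directions. The called genes were 331 higher and 323 lower in the main setting, 2034 and 309 after normexp background correction, 272 and 464 after quantile normalization, 6 and 32 with scaling to the array median, and 214 and 483 with the percentile taken over probes well above background on all 16 arrays. The median difference of all genes was 0.05 in the main setting without near-term PHE replicate 1 and 0.50, -0.01, 0.25 and -0.21 in those settings, and with all 16 arrays it was 0.06 and then 0.44, -0.03, 0.14 and -0.12.

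The arrays lay on 3 slides, none with all 4 groups, so that the difference cannot be had within 1 slide. Slide 1 held the 4 near-term PHE arrays and near-term untreated replicate 4, slide 2 adult untreated replicates 3 and 4 and near-term untreated replicate 1, and slide 3 the other 8 arrays. With slide as a fixed block 8 genes were called with all arrays and 497 without near-term PHE replicate 1, of which 135 were among the 654 with the same direction. With slide as a random block the counts were 0 and 25. Of the 39 named genes called without near-term PHE replicate 1, all 39 kept their sign with slide as a fixed block and 9 were called there: C10orf10, TAS2R14, MT3, NUP210, TYROBP, HSPA8, ANXA6, INSIG1 and TNC. The adult effect can be had within slide 3, from 4 PHE and 2 untreated arrays, and the near-term effect within slide 1, from 1 untreated array, the dimmest. The fixed block takes its near-term effect from that 1 untreated array too, the only one on the slide of the near-term PHE arrays. Values with slide as a fixed block are thus no check separate from that array. The difference was over 1.5 times smaller in size for 8 of the 39 with the fixed block and for 14 within slides, these 8 (MEG3, ELN, SLC39A7, CD248, HTR2A, LOXL1, NFE2L1 and PDIA3) with PDGFRB, ENG, GPX1, MAP1B, PPP1R15A and TIMP3. Of the 21 named genes not called, 5 turned sign with the fixed block (CXCL8, IL1B, KLF2, SOCS3 and NFIL3), and within slides TNF and EGR1 did too.

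C10orf10 (also called DEPP1), a gene known to be induced by progestins and by FOXO transcription factors, had the smallest adjusted p of all genes without near-term PHE replicate 1. Its signal was 2.05, 2.45, 1.20 and 1.87 in the adult untreated arrays and 5.58, 5.67, 4.44 and 5.40 in the adult PHE arrays. In the near-term arrays it was 2.30, 1.83, 1.92 and 2.16 untreated and 2.73, 1.54, 0.24 and 0.86 with PHE. The adult groups did not overlap, and PHE replicate 1 was the only near-term PHE array above the near-term untreated arrays. The difference was 4.09 (SE 0.63, 95% interval 2.75 to 5.43, limma adjusted p = 0.068) with all 16 arrays and 4.55 (SE 0.50, 3.47 to 5.63, adjusted p = 0.0040) without that array, or 23.4 fold. C10orf10 rose 10.4 fold in the adult (log2 3.38) and fell 2.25 fold in the near-term artery (log2 -1.17, adjusted p = 0.026) without PHE replicate 1. With all arrays the near-term effect was -0.71 (adjusted p = 0.27) and was not called. With slide as a block the difference was 4.53 and was called, and within slides the adult effect was 3.02 and the near-term effect -1.28.

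CKS2, MEG3 and LOC100851241 rose with PHE in the adult, from levels below those of the near-term untreated arrays. CKS2, a small subunit of cyclin-dependent kinases, had signals of -3.08, -3.22, -2.91 and -3.36 in adult untreated arrays and 1.55, -1.04, 0.49 and 0.19 in adult PHE arrays. Its near-term signals were 1.76, 1.73, 1.86 and 1.25 untreated and 1.27 to 1.92 with PHE, so that the near-term groups overlapped. The CKS2 difference was 3.50 (SE 0.55, adjusted p = 0.068) with all arrays and 3.52 (SE 0.59, adjusted p = 0.030) without near-term PHE replicate 1, and with slide as a block it was 3.12 and not called. MEG3, an imprinted long noncoding RNA, was -3.59, -3.97, -4.51 and -4.27 in adult untreated and 0.57, -1.49, -1.74 and 0.90 in adult PHE arrays and lay between 2.21 and 3.99 in the 8 near-term arrays. Its difference was 3.93 (SE 0.89, adjusted p = 0.031) without near-term PHE replicate 1, or 2.54 with slide as a block and not called, and 3.75 with that array, but a second, dimmer MEG3 probe gave -0.63 and -0.56. LOC100851241, a locus with no gene name, rose 14.5 fold in the adult and had a difference of 3.03 (SE 0.67). TAS2R14, a bitter taste receptor, had a difference of 4.30 (SE 0.99), with an adult effect of 2.90 (adjusted p = 0.053) and a near-term effect of -1.40 (adjusted p = 0.15) without near-term PHE replicate 1, neither called by itself, though the adult effect was called in the fit with all 16 arrays (adjusted p = 0.044).

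TRIB1 and KLF4 rose at both ages, and more in the adult. TRIB1, a pseudokinase that brings proteins to a ubiquitin ligase, rose 36.9 fold in the adult and 6.98 fold in the near-term artery, a difference of 2.40 (SE 0.54, adjusted p = 0.031) without near-term PHE replicate 1 and 2.20 (SE 0.54, adjusted p = 0.11) with it. KLF4, a transcription factor that represses contractile genes in smooth muscle, had signals of -1.84, -2.20, -1.53 and -2.49 in adult untreated and 3.21, 1.26, 2.72 and 2.46 in adult PHE arrays. In the near-term arrays KLF4 was 0.15, -0.14, 0.19 and 0.68 untreated and 2.94, 2.60, 2.00 and 2.76 with PHE. Both ages had PHE arrays clear of the untreated ones, and the PHE arrays of the ages overlapped, while the untreated levels differed. The KLF4 difference was 2.20 (SE 0.54, adjusted p = 0.035) without near-term PHE replicate 1 and 2.07 (SE 0.52, adjusted p = 0.11) with it.

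**Figure D3:**
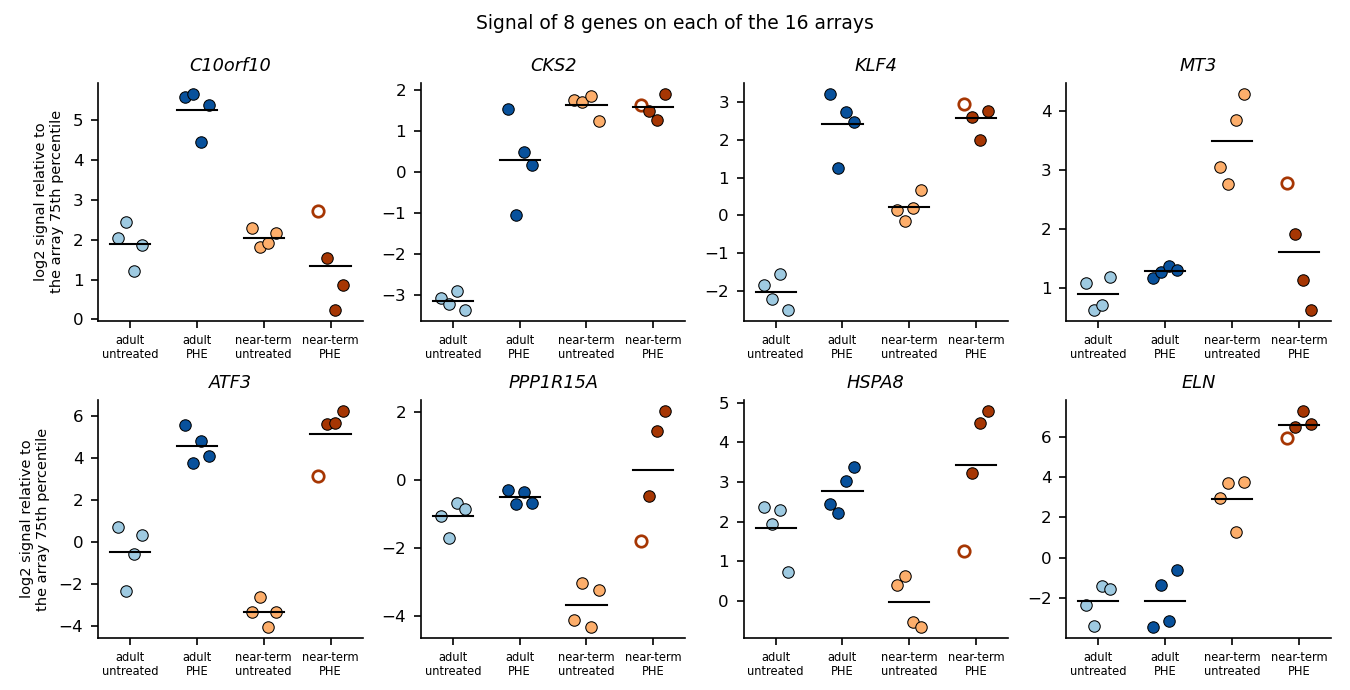
Log2 signal relative to the array's 75th percentile of 8 genes, with 1 point per array, a line at the group mean and near-term PHE replicate 1 as the open circle. C10orf10, CKS2 and KLF4 have differences above 0 (4.55, 3.52 and 2.20 without that array) with an adult rise, MT3 (2.64) has a near-term fall, and ATF3, PPP1R15A, HSPA8 and ELN (-4.15, -4.12, -3.28 and -3.86) have a larger near-term rise.

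A further set had a difference above 0 with a fall in signal from near-term untreated to near-term PHE arrays. MT3, a zinc- and copper-binding metallothionein, had signals of 3.06, 2.76, 3.85 and 4.29 in near-term untreated arrays and 2.78, 1.91, 1.14 and 0.64 in near-term PHE arrays, and 0.64 to 1.39 in the 8 adult arrays. PHE replicate 1 lay among the untreated arrays and the other 3 below them. MT3 fell 4.78 fold in the near-term artery without that array, with a difference of 2.64 (SE 0.49, adjusted p = 0.031), and of 2.25 (SE 0.58, adjusted p = 0.12) with it. A second MT3 probe gave 2.83 and 2.38. NUP210, a membrane protein of the nuclear pore, fell 4.63 fold in the near-term artery and had a difference of 2.37 (SE 0.50).

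Of the genes called lower in the adult, the 8 with the largest differences among named genes well above background on all 16 arrays included 3 matrix genes. COL7A1, the collagen of anchoring fibrils, had signals of -1.89, 0.87, -2.52 and -1.07 in near-term untreated and 2.76, 3.26, 4.93 and 3.44 in near-term PHE arrays, and -5.06 to -2.20 in the 8 adult arrays, where treated and untreated overlapped. Its difference was -4.23 (SE 1.05, adjusted p = 0.035) without near-term PHE replicate 1 and -3.95 (SE 1.00, adjusted p = 0.12) with it. ELN, the elastin of the arterial wall, was 2.96, 3.73, 1.28 and 3.75 in near-term untreated arrays and 5.95, 6.52, 7.29 and 6.63 in near-term PHE arrays, and between -3.46 and -0.64 in all 8 adult arrays. The ELN difference was -3.86 (SE 1.01, adjusted p = 0.041) and -3.65 (SE 0.95, adjusted p = 0.12), and it was not called with slide as a block (-2.54). COL3A1, a fibrillar collagen, had a difference of -3.89 (SE 1.07, adjusted p = 0.048), and its 2 other probes gave -3.82 and -3.96.

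The other 5 of these genes have varied roles. HSPA8, the constitutive chaperone of the heat shock family, was 0.40, 0.64, -0.53 and -0.67 in near-term untreated arrays and 1.25, 3.23, 4.49 and 4.79 in near-term PHE arrays, an 18.5 fold rise without PHE replicate 1. Its adult signals were 0.72 to 2.38 untreated and 2.21 to 3.38 with PHE, which overlap. The HSPA8 difference was -3.28 (SE 0.67, adjusted p = 0.031) without near-term PHE replicate 1, -2.55 (SE 0.91, adjusted p = 0.21) with it, and -4.03 and called with slide as a block. HNRNPK, an RNA-binding protein, SLC39A7, a zinc transporter of the secretory pathway, PDGFRB, the growth factor receptor of mural cells, and ANXA6, a calcium-dependent membrane-binding protein, had differences of -3.38, -3.39, -3.34 and -3.21 without near-term PHE replicate 1 and of -3.10, -3.12, -3.10 and -2.91 with it. They were -3.91, -2.05, -2.65 and -3.46 with slide as a block without that array, called for ANXA6 and not for the other 3, and within slides they were -3.40, -1.28, -1.89 and -2.95. Each of these 4 rose with PHE in the near-term artery, by 4.79 to 12.9 fold, and none had an adult effect that passed the test.

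CD248, a marker of fibroblasts and pericytes, was the only called gene with a symbol that was not well above background on any array of a group, here adult PHE. It was well above background on 2 adult untreated, 1 near-term untreated and 4 near-term PHE arrays. CD248 thus entered the test only through near-term PHE, the group where its signal was highest, which favours a negative difference. Its fitted difference was -2.01 (adjusted p = 0.042) without near-term PHE replicate 1 and -1.91 (adjusted p = 0.13) with it, and -1.03 with slide as a block without that array. Since the near-term untreated level was also mostly not well above background, neither the size of the difference nor a limit to it can be given from these readings. Its direction turned after normexp background correction.

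**Figure D4:**
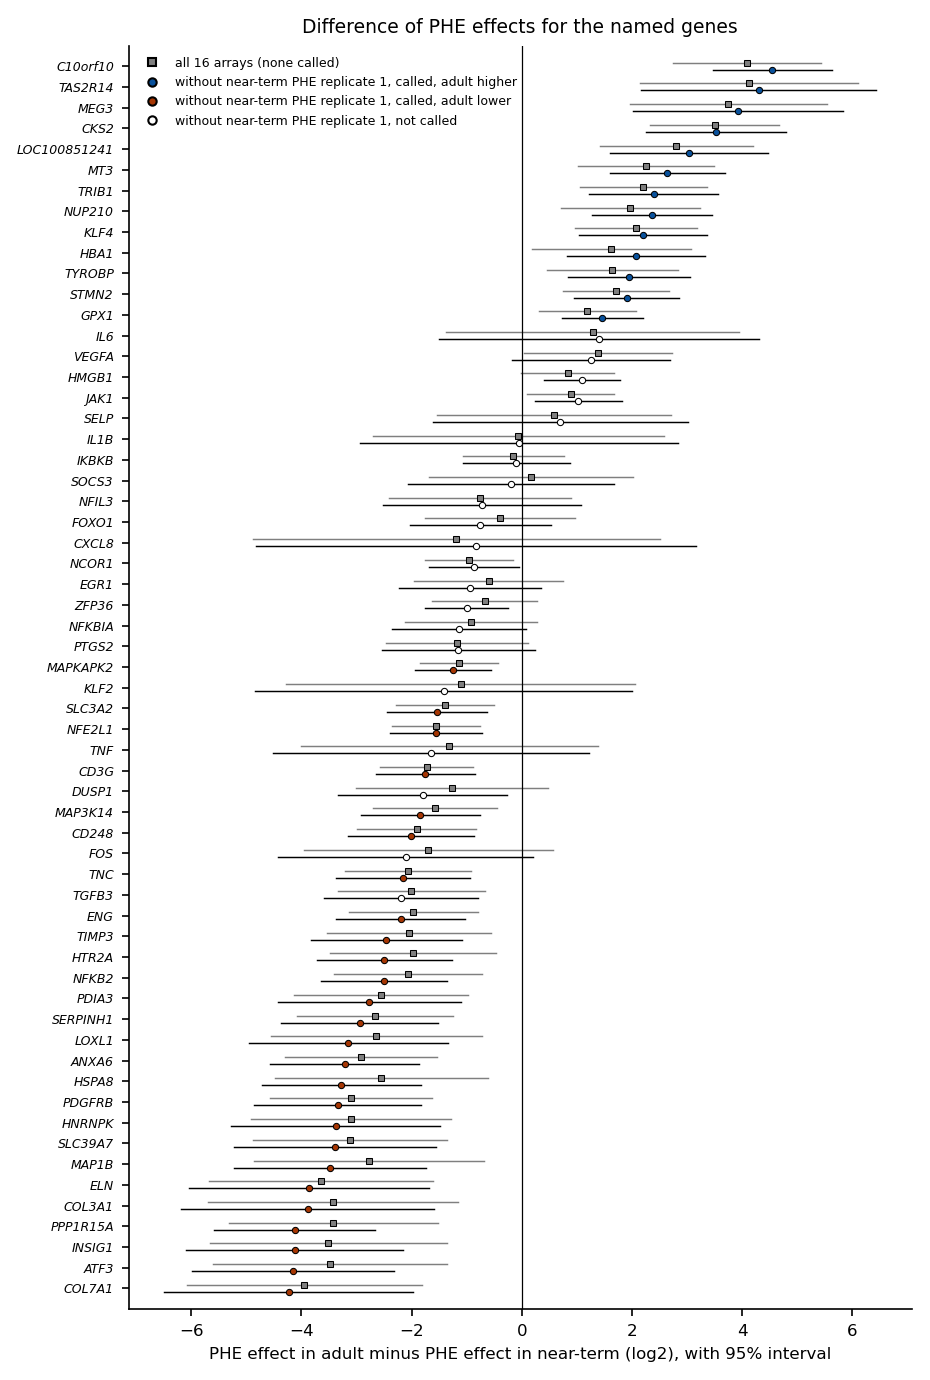
The difference of PHE effects (adult minus near-term, log2) with its 95% interval from limma, for each gene named in the text by the rule or by list, with all 16 arrays as squares and without near-term PHE replicate 1 as circles. Without that array the points run from C10orf10 (4.55, or 4.09 with all 16) to COL7A1 (-4.23, or -3.95 with all 16). With all 16 arrays TAS2R14 lies highest (4.12). The 2 fits share 15 arrays, and no gene is called with all 16 arrays.

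Most of the tested immediate early genes, transcription factors and others such as ZFP36, IER3 and BTG2, rose at both ages. Most symbols come through the study's own list of genes altered at some age, so the share that rose is partly set by the naming. Of 28 listed genes 20 could be tested, and without near-term PHE replicate 1 PHE raised 14 of them in the adult and 19 in the near-term artery, with median effects of 4.46 and 5.23, beside 105 and 622 of the 2019 genes with a symbol. The difference was called for 2, KLF4 higher and ATF3 lower in the adult, beside 154 higher and 160 lower of the 2019, and its median was -0.91 (-0.64 with all arrays) against 0.05 over all 9997 genes. With slide as a block the median was -0.30, and -0.47 relative to all genes. ATF3, a stress-induced repressor of the bZIP family, had signals of -3.35, -2.62, -4.07 and -3.34 in near-term untreated arrays, well above background on 2 of the 4, and 3.16, 5.63, 5.67 and 6.25 with PHE. In the adult it was 0.69, -2.33, -0.60 and 0.35 untreated and 5.57, 3.77, 4.84 and 4.11 with PHE. ATF3 thus rose at both ages, from a lower untreated level in the near-term artery, with a difference of -4.15 (SE 0.85, adjusted p = 0.031) without near-term PHE replicate 1 and -3.48 (SE 0.99, adjusted p = 0.15) with it. FOS rose 57.6 fold in the adult and 248 fold in the near-term artery, EGR1 46.8 and 89.6 fold, and ZFP36 14.9 and 29.9 fold. The differences of FOS (-2.11) and EGR1 (-0.94) were not called (adjusted p = 0.23 and 0.35), and that of EGR1 was -0.24 with slide as a block and 0.14 within slides. That of ZFP36 was not called either, with an adjusted p of 0.090 without near-term PHE replicate 1 and a difference of -0.67 (adjusted p = 0.48) with it. Other probes of the same genes gave -0.51 and -2.41 for FOS, -3.02 and -1.28 for EGR1 and -3.78 for ZFP36, without that array. KLF2, a flow-responsive factor of endothelium, had a difference of -1.42 (SE 1.59, adjusted p = 0.62), or 0.39 with slide as a block, with adult untreated signals from -7.55 to -1.39, and was well above background on 2 adult untreated and 1 near-term untreated arrays.

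Of the heat shock and chaperone list 18 of 27 genes were tested. Without near-term PHE replicate 1, 1 of the 18 rose in the adult and 14 in the near-term artery, with median effects of 0.87 and 2.43. Of the 2019 genes with a symbol 105 rose in the adult and 622 in the near-term artery. The difference was called lower in the adult for 2 of the 18, HSPA8 and SERPINH1, beside 160 of the 2019, and was below 0 for 16, with a median of -1.23 (-0.91 with all arrays). SERPINH1, the chaperone that folds collagen, had a difference of -2.94 (SE 0.66). Relative to all genes the median of the list was -1.28 in the main setting and lay between -1.52 and -1.19 under the scaling and background alternatives, and at -1.74 with slide as a block. Stress genes of the integrated stress and unfolded protein response had the same sign, with 3 of 19 called lower, 0 higher and a median of -0.78, or 0.10 after normexp and -0.40 relative to all genes there. PPP1R15A, a regulatory subunit that restores translation after stress, was -4.12, -3.03, -4.34 and -3.24 in near-term untreated arrays, well above background on 2 of them, and -1.79, -0.46, 1.44 and 2.04 with PHE. The adult signals of PPP1R15A were -1.70 to -0.68 untreated and -0.71 to -0.29 with PHE, and its difference was -4.12 (SE 0.68, adjusted p = 0.030), or -3.43 (SE 0.89, adjusted p = 0.12) with all arrays. SLC3A2, the heavy chain of amino acid transporters, and PDIA3, a disulfide isomerase of the endoplasmic reticulum, had differences of -1.54 and -2.77. These were -1.38 and -1.12 with slide as a block (adjusted p = 0.17 and 0.41), neither called, and that of PDIA3 was -0.63 within slides. PPP1R15A, SLC3A2, PDIA3 and the other list members named below for lists outside the rule were chosen after their values were seen.

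Of the MAP kinase list 18 of 27 genes were tested, and 4 were called lower in the adult and 0 higher, beside 160 lower and 154 higher of the 2019 genes with a symbol. The median difference was -0.55 (-0.61 with all arrays), and 0.03 after normexp, where that of all genes was 0.50. Among these were MAP3K14, the NF-kB-inducing kinase, and MAPKAPK2, a kinase downstream of p38. MAP3K14 had a difference of -1.85 (SE 0.50) and was well above background on 1 near-term untreated array, and it was above 0 after normexp background correction in both fits. MAPKAPK2 had signals of -1.81, -2.14, -2.19 and -2.04 in near-term untreated arrays and -1.07, -0.23, -1.02 and -0.60 with PHE, and -1.27 to -0.55 in the 8 adult arrays. The near-term groups did not overlap and the adult ones did, and the MAPKAPK2 difference was -1.25 (SE 0.32, adjusted p = 0.039), or -1.14 (SE 0.33, adjusted p = 0.15) with all arrays. The feedback phosphatase DUSP1 had a difference of -1.80 (SE 0.72, adjusted p = 0.13) that was not called, but it was called lower with slide as a fixed block (-3.19, adjusted p = 0.047) and with all 32 arrays in 1 fit (adjusted p = 0.035). Its signals were 3.31, 4.42, 3.25 and 2.80 in adult PHE and 1.93, 3.02, 4.54 and 4.63 in near-term PHE arrays. The near-term effect with the fixed block rests on near-term untreated replicate 4. The DUSP1 signal of that array, -1.19, stood apart from the rest of its group.

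Few receptors for vasoconstrictors could be measured. Of 28 listed genes of the receptor, G protein and RGS list 7 had a named probe and 6 were tested, and no alpha-1 receptor was among them. HTR2A, the serotonin receptor that contracts cerebral arteries, was the only one of the 6 called, beside 314 of the 2019 genes with a symbol. Its signals were -4.16, -3.12, -4.67 and -2.83 in near-term untreated arrays and -3.36, -1.68, -1.33 and -0.82 with PHE, and -2.91 to -1.62 in the 8 adult arrays. It was well above background on 2 of 4 near-term untreated arrays. Its difference was -2.49 (SE 0.57, adjusted p = 0.031) without near-term PHE replicate 1 and -1.97 (SE 0.71) with it, where normexp brings it to 0.04, and a second HTR2A probe gave 0.63 and 0.96, the other sign. The HTR2A difference was -1.51 (adjusted p = 0.21) and not called with slide as a block. The median difference of the 6 was -0.37, or -0.02 with all arrays and -1.35 with slide as a block without near-term PHE replicate 1.

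No difference was called among the tested cytokines and chemokines. Of 46 listed, 30 had a named probe, 14 were tested and 0 were called, beside 314 of the 2019 genes with a symbol. Whether 0 of 14 departs from that share was not tested. PHE raised 3 in the adult and 9 in the near-term artery without PHE replicate 1, beside 105 and 622 of the 2019. IL6 was not well above background on any adult untreated array and rose at least 140 fold in the adult. Its adult PHE signals were 1.67, -1.76, 1.26 and 2.92 and its near-term PHE signals 2.81, 1.54, 1.79 and 3.68, which overlap, and the fitted difference was 1.40 (SE 1.35). IL6 was also well above background on only 1 of 4 near-term untreated arrays, so that the size of its near-term rise and of the difference is not settled. TNF had adult PHE signals of -1.65, -6.31, -2.04 and -1.01 and IL1B of -0.71, -4.70, -3.04 and 0.48, with adult PHE replicate 2 at or near the untreated level in both. Their differences were -1.64 (SE 1.33) and -0.05 (SE 1.34), and that of CXCL8 (IL8) was -0.83 (SE 1.85), intervals too wide to place any of them. The median difference of the list was -0.40 in the main setting, or -0.30 with dim groups raised, and 0.78 with slide as a block, and relative to all genes it was -0.45, 0.06 after normexp and 0.61 with slide as a block, so that its sign depends on these settings.

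NF-kB and JAK-STAT genes gave a mixed picture. In the NF-kB and endothelial activation list 2 of 19 tested genes were called lower in the adult, NFKB2 and MAP3K14, beside 160 of the 2019 genes with a symbol, and the median difference was -0.41, or 0.08 with slide as a block. NFKB2, a precursor subunit of the noncanonical pathway, had a difference of -2.50 (SE 0.53, adjusted p = 0.031) and was well above background on 1 near-term untreated array, and its direction turned after normexp. PTGS2, the inducible cyclooxygenase, rose 19.8 fold in the adult and 43.9 fold in the near-term artery, with a difference of -1.15 (SE 0.65, adjusted p = 0.28). SELP, the adhesion receptor P-selectin, rose 18.8 and 11.6 fold with a difference of 0.70 (SE 1.08). NFKBIA and IKBKB, an inhibitor of NF-kB and a kinase that removes it, had differences of -1.14 (SE 0.57) and -0.10 (SE 0.45). In the JAK-STAT list 0 of 12 were called and the median was 0.02, which lay above or below that of all genes depending on scaling. SOCS3, a feedback inhibitor of JAK signalling, rose 157 fold in the adult and also rose in the near-term artery. It was well above background on only 1 of 4 near-term untreated arrays, so that the size of its near-term rise is not settled, and its fitted difference of -0.20 (95% interval -2.07 to 1.68) was not called and was 1.17 with slide as a block. JAK1 had a difference of 1.02 (SE 0.37, adjusted p = 0.10), or 0.41 with slide as a block and 0.19 within slides.

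In the extracellular matrix and TGF-beta list 22 of 29 genes were tested. Without near-term PHE replicate 1, 15 rose and 1 fell in the near-term artery, 0 passed the test in the adult, and 5 differences were called, all lower in the adult, with a median of -1.21 (-0.83 with all arrays, -0.76 with slide as a block without that replicate). Of the 2019 genes with a symbol, 622 rose and 511 fell in the near-term artery, 118 were called in the adult, and 160 differences were called lower and 154 higher. Beside COL3A1 and ELN these were LOXL1, a lysyl oxidase that crosslinks elastin (-3.15, SE 0.84, or -2.01 with slide as a block), TIMP3, an inhibitor of matrix proteases (-2.46, SE 0.64), and TNC, a matrix protein of growing and injured arteries (-2.16, SE 0.57). TGFB3 had a difference of -2.20 (SE 0.65, adjusted p = 0.057).

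The remaining lists had 0 to 3 calls each. Of the 2019 genes with a symbol 314 were called, 154 higher and 160 lower in the adult. In the PPAR and lipid list 2 of 16 were called lower, and the median was -0.91, or -0.26 with slide as a block and 0.02 after normexp. INSIG1, which retains the sterol sensor in the endoplasmic reticulum, was among them with a difference of -4.13 (SE 0.91), or -5.42 with slide as a block, and was well above background on 2 of 4 near-term untreated arrays. NCOR1, a corepressor of nuclear receptors, had a difference of -0.87 (SE 0.38), or -0.21 with slide as a block. In the metallothionein and oxidative stress list 3 of 12 were called, MT3 and the antioxidant enzyme GPX1 (1.46, SE 0.34) higher and the transcription factor NFE2L1 (-1.57, SE 0.39, or -0.94 with slide as a block) lower, with a median of -0.09 that was 0.60 with slide as a block. The angiogenesis and hypoxia list had 0 of 19 called and a median of 0.42, which was below that of all genes after quantile normalization (-0.24 relative to it). VEGFA, the endothelial growth factor, rose 4.67 fold in the adult and had a difference of 1.26 (SE 0.67, adjusted p = 0.24), with 1.61 and 2.53 on its other probes with all arrays. The cell cycle list had 0 of 12 called and a median of -0.55, which normexp brought to the median of all genes. That median was -0.10 with slide as a block and -0.16 with dim groups raised. Of the other genes the study names, FOXO1, NFIL3 and HMGB1 had differences of -0.75 (SE 0.59), -0.73 (SE 0.84) and 1.10 (SE 0.32, adjusted p = 0.056), and none was called. NFIL3 had a difference of 0.80 with slide as a block and was well above background on only 1 of 4 near-term untreated arrays.

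**Figure D5:**
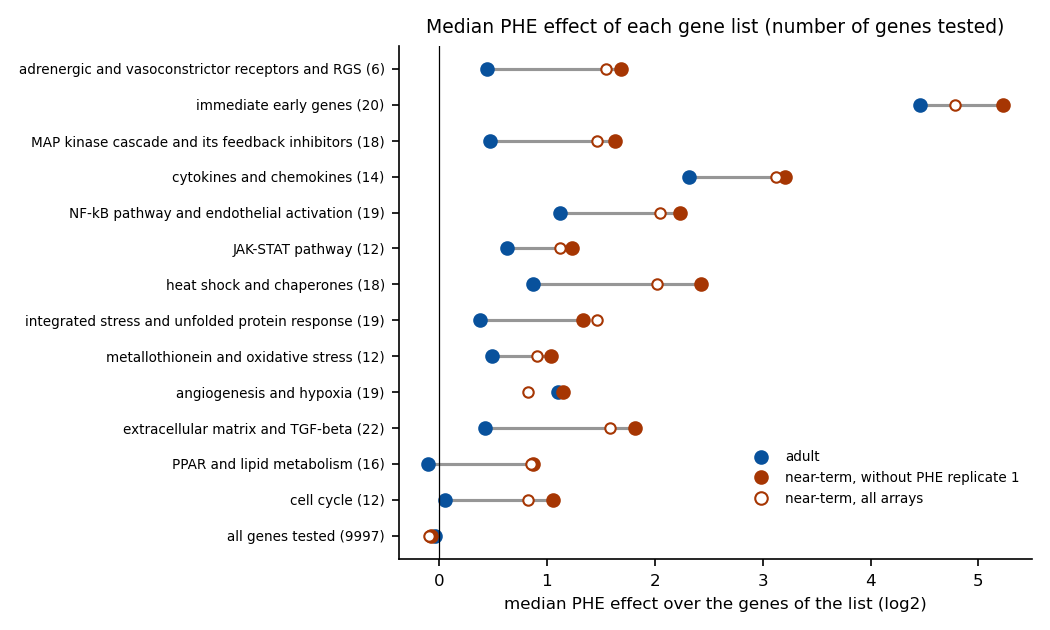
Median PHE effect (log2) over the tested genes of each list, in the adult, in the near-term artery without PHE replicate 1 and with all near-term arrays as open circles, with the number of genes tested in parentheses. The near-term median lies above the adult one for heat shock (2.43 and 0.87) and matrix genes (1.82 and 0.43), among other lists shown, while all genes lie near 0 at both ages (-0.07 and -0.04).

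Markers of cell types differed in level among the groups, and fewer cells of a type and less RNA per cell cannot be told apart in these whole-artery samples. The summed signal of a marker list is given in multiples of the array's 75th percentile. For smooth muscle 2 of 17 markers could be tested, CNN1, which was well above background on all 16 arrays and gave most of the sum, and CALD1. Their sum had medians of 477 and 456 in adult untreated and PHE arrays and of 255 and 129 in near-term untreated and PHE arrays, where the array values were 302, 135, 403 and 208 untreated and 305, 148, 110 and 105 with PHE. Most defining smooth muscle markers, ACTA2 and MYH11 among them, have no named probe, so the label of the tissue rests on few genes here. For blood, 2 of 7 markers were tested and HBA1 gave most of the sum, which was 12.8, 14.1, 23.2 and 15.2 in near-term untreated arrays and 7.67, 1.53, 4.80 and 2.13 with PHE, without overlap, and 2.64 to 9.48 in the adult arrays. HBA1, an alpha globin, had a called difference of 2.08 (SE 0.58).

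For endothelium 5 of 14 markers were tested, with sums of 0.71 to 1.75 in near-term PHE, 0.21 to 1.13 in near-term untreated and 0.19 to 0.50 in adult arrays, and ENG, a TGF-beta coreceptor that was most often the brightest, had a called difference of -2.20 (SE 0.55). For leukocytes 11 of 17 were tested, with sums of 4.64 to 9.12 in near-term PHE, 5.74 to 10.4 in near-term untreated and 2.26 to 6.26 in adult arrays. CD3G, which was most often the brightest, was called lower (-1.75, SE 0.42) and TYROBP higher (1.95, SE 0.52). For brain and nerve 7 of 13 were tested, with sums of 1.98 to 2.49 in near-term PHE, 2.95 to 8.70 in near-term untreated and 1.23 to 2.14 in adult arrays, and STMN2, the gene most often the brightest, was called higher (1.90, SE 0.44) and MAP1B lower (-3.48, SE 0.81). For fibroblasts 4 of 7 were tested, DCN gave most of the sum, and the sums were 8.08 to 56.6 in near-term PHE, 23.4 to 63.2 in near-term untreated and 7.41 to 32.2 in adult arrays. For fat 2 of 8 were tested, mostly FABP4, with sums of 0.12 to 0.49 in near-term PHE, 0.26 to 1.03 in near-term untreated and 0.08 to 1.53 in adult arrays. The median differences of the marker lists were 0.23 for smooth muscle, -1.21 for endothelium, 1.37 for leukocytes, 1.75 for blood, 0.66 for nerve, 0.89 for fat and -1.61 for fibroblasts. With slide as a block they were 0.81, 0.55, 1.64, 2.36, 2.27, 2.20 and -0.02 in the same order. Raising groups with no array well above background to the lowest such signal gave 1.31, -0.79, 1.37, 1.81, 1.44, 0.89 and -0.69. Relative to all genes, that of endothelium turned positive after normexp and with slide as a block, that of fibroblasts after normexp, and that of smooth muscle turned negative after quantile normalization. The blood and nerve sums of near-term untreated and PHE arrays thus did not overlap, and what part this has in the differences above was not tested.

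The same rule applied to the other ages, newborn minus premature, called 64 of 9962 genes (0.642%), 12 higher and 52 lower in the newborn. Whether that count differs from the adult and near-term one was not tested. Gene symbols limit all the lists, since 11941 of the 15008 probes have none. Among the 2019 tested genes with a symbol, 314 were called without near-term PHE replicate 1, and 1614 of the 2019 carry a symbol that comes through the study's own tables, which hold only genes the study lists as altered at some age.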

How the data were processed

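RNA of 32 arrays was measured on 1-colour Agilent sheep arrays, and 16 of these arrays enter the comparison. Per the file headers, the deposited intensities are Feature Extraction processed signals, background-subtracted and detrended within each array and not scaled between arrays. From them, spots of 1 probe were averaged, values were scaled so that the 75th percentile of every array is 1 and then put on the log2 scale. A gene was tested when at least 1 of the 4 groups had its probe well above background in each of 4 arrays, which left 9997 genes. limma 3.58.1 in R 4.3.3 (lmFit and eBayes, 4 group means) gave the difference of PHE effects with its standard error and p, adjusted over all genes by Benjamini-Hochberg. A gene was called at an adjusted p under 0.05 and at least 1.5 fold. The repeat without near-term PHE replicate 1 used the same genes. Tables and figures used Python 3.11.15, pandas 2.3.3, scipy 1.17.1 and matplotlib 3.10.9. The code was tested on simulated data.

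Of 15008 probes, 521 were named through the reference list, 731 by the files, and 1815 by matching the study's supplementary values to probe means, and 11941 have no symbol. For the near-term age 1101 of 1106 listed genes matched 1 probe with PHE replicate 1 left out of the mean, and 5 with it included.

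Genes to name were to be those called in both fits: the 8 largest differences each way among genes well above background on all 16 arrays, the 3 largest each way with a group without an array above background, and members of the immediate early, heat shock, cytokine, MAP kinase and receptor lists. To these came the smallest adjusted p of each fit, the genes the study names, and cell type markers as lists. Since 0 genes were called with all 16 arrays, the rule was applied to the fit without near-term PHE replicate 1, and called members of the other lists were added. This change was made after the values were seen. Of the genes the rule takes, 3 are not reported here. The members and lists were chosen with earlier results of these data known.

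Alternatives were other backgrounds, scalings, filters, tests and spreads, slide and replicate number as blocks, the deposited value matrix, other rules for probes and names, and arrays left out. Of these, leaving out both near-term arrays with the most probes above background, and using only arrays on the slide of the PHE arrays of their age, were added after seeing the data.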

Additional observations from a re-analysis of the deposited data

Results flagged for a closer look

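Of 276 groups of 4 arrays checked for a value far from the other 3, 14 had one, and chance gives about 1 in 20. Adult untreated replicate 3 held 7 of the 14: log2 values of NUP210 (2.066), MAP1B (-0.672), STMN2 (-1.245) and JAK1 (3.985), its 75th percentile intensity (1709), and the summed endothelium (0.4999) and fat (1.532) markers. Adult PHE replicate 1 was apart for STMN2 (-1.065) and the percentage of probes well above background (69.78), and adult PHE replicate 4 for EGR1 (2.017). Near-term untreated replicate 4 was apart for DUSP1 (-1.189), near-term PHE replicate 3 for IKBKB (0.4047) and the summed brain and nerve markers (1.979), and near-term PHE replicate 4 for the percentage of probes well above background (95.68).

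The PHE effect differed between the ages by the limma test without near-term PHE replicate 1 for 39 named genes, none of which passed it with all 16 arrays. The difference, adult minus near-term, was above 0 for C10orf10 4.549, TAS2R14 4.305, MEG3 3.929, CKS2 3.521, LOC100851241 3.034, MT3 2.642, TRIB1 2.401, NUP210 2.369, KLF4 2.196, GPX1 1.464, HBA1 2.076, STMN2 1.903 and TYROBP 1.953. It was below 0 for COL7A1 -4.231, COL3A1 -3.886, ELN -3.862, SLC39A7 -3.386, HNRNPK -3.378, PDGFRB -3.339, HSPA8 -3.276, ANXA6 -3.214, CD248 -2.006, ATF3 -4.154, HTR2A -2.495, MAP3K14 -1.847, MAPKAPK2 -1.253, SERPINH1 -2.942, CD3G -1.748, ENG -2.2, INSIG1 -4.126, LOXL1 -3.148, MAP1B -3.484, NFE2L1 -1.566, NFKB2 -2.498, PDIA3 -2.77, PPP1R15A -4.125, SLC3A2 -1.541, TIMP3 -2.46 and TNC -2.162.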

How the results depend on the processing

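The 4 arrays of a group and 1 array that stands apart limit the comparison. With all 16 arrays the count of called genes was 0, and the alternatives gave 1207 with all 32 arrays in 1 fit, 2 with intensity trend and robust spread, 76 after quantile normalization, 3 when a gene had to be well above background on each of 16 arrays, and 8 with slide as a fixed block. It was 1253 by the methods' t-test, carried from 2 groups to the difference of effects, and 1603 by limma at unadjusted p with the fold threshold. It was 940 without both near-term untreated replicate 4 and near-term PHE replicate 1, and 4 without both near-term arrays with the most probes above background, an alternative added after seeing the data. Leaving out 1 array gave 0 to 654.

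Without near-term PHE replicate 1 the count was 654. It was 2641 with all 32 arrays, 2257 by the methods' t-test at unadjusted p and 0 after adjustment, 2645 by limma at unadjusted p, 2343 after normexp background correction, 38 with median scaling, 2 with no filter on dim probes and 25 with slide as a random block. Of the alternatives added after seeing the data, leaving out both near-term arrays with the most probes above background gave 1197, and using only arrays on the slide of the PHE arrays of their age gave 1137, and 0 with all 4 near-term PHE arrays. That setting leaves 1 near-term untreated array, the dimmest, so its count rests on that array. The near-term effect with slide as a fixed block rests on it as well. Leaving out 1 more array gave 2 to 1582. The near-term effect itself was called for 1934 genes with all arrays and 3324 without PHE replicate 1. For newborn minus premature the count of 64 was 2 with all 32 arrays in 1 fit. After normexp, 3 of the 26 named genes called lower lay above 0: CD248 at 1.909, MAP3K14 at 0.9813 and NFKB2 at 0.4349. The cause was not tested.

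The labels do not say whether replicate numbers pair the samples, and the values do not settle it. The correlation of same-numbered untreated and PHE arrays was -0.108 to 0.043 in the adult and -0.107 to 0.527 in the near-term artery, and 1 near-term number had its own partner as the best. With the replicate block the count was 0 with all arrays and 1 without near-term PHE replicate 1.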
